A study of Homo sapiens with 6 samples.

Results

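Serine and arginine-rich splicing factors (SR proteins, gene symbols SRSF) were followed at the transcript level in A2780, an established line of human ovarian cancer cells. The members are 10 genes, SRSF1 to SRSF7 and SRSF9 to SRSF11, found by symbol among the 60564 gene rows of a table of counts, and all 10 were abundant enough to be among the 17006 genes tested. The table holds 3 libraries labelled GPT2sinc and 3 labelled GPT2si, all of poly(A)-selected RNA from the same line, and the series concerns a lack of GPT2, the mitochondrial alanine aminotransferase. The labels do not spell out si and sinc, name no treatment time, and leave unsaid whether replicates were grown separately. The p-values thus measure the spread among libraries alone, and that spread may be technical. Membership came from gene names alone, but the family was taken up with results of the GPT2si against GPT2sinc comparison known. Its differences are therefore a description, and the calls below say where the fit across all genes placed each member.

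SR proteins carry RNA recognition motifs followed by a tail rich in arginine-serine repeats. They bind enhancer sequences in exons and help the U1 and U2 small nuclear ribonucleoproteins (snRNPs) find splice sites, and several of them also take part in mRNA export and translation. SRPK and CLK kinases phosphorylate the tail and thereby set where the proteins reside and how they act. Many SRSF genes limit their own output by splicing in a poison exon with a premature stop codon, which sends the transcript to nonsense-mediated decay. Counts per gene sum productive and decaying transcripts, so a level here is the total of both, and in bulk RNA fewer cells making a transcript and less of it per cell cannot be told apart.

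Total counts ran from 41931162 to 50882329 per library. GPT2 was at 236, 230 and 219 CPM (counts scaled to a common library size with TMM factors) in GPT2sinc 1 to 3 and at 93.8, 94.3 and 96.9 CPM in GPT2si 1 to 3, a log2 fold change of −1.26 (SE 0.08; adjusted p = 0.000393, edgeR quasi-likelihood test with Benjamini-Hochberg adjustment over all genes tested). Of 8 epithelial and ovarian cancer markers, WT1 and KRT7 had no count, PAX8 and MUC16 were near 0, and the summed level was 57.3 to 59.9 CPM in GPT2sinc and 64.4 to 80.2 CPM in GPT2si, nearly all of it from KRT8 and KRT18; the part of this difference in the results was not tested. Summed immune markers (4 genes, CD3E at 0) reached at most 0.301 CPM in GPT2sinc and 0.318 CPM in GPT2si. Endothelial markers (3 genes, CDH5 at 0) reached at most 0.299 and 0.154 CPM. The 4 fibroblast markers summed to 124 to 141 and 135 to 145 CPM, nearly all of it COL1A1.

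Transcripts of SRSF2 and SRSF6 rose with GPT2si. Of the other 8 members 0 passed the test, and their log2 fold changes ran from −0.13 to 0.23. SRSF2 went from 132 ± 8.88 to 183 ± 7.87 CPM and SRSF6 from 94.3 ± 1.79 to 129 ± 1.27 CPM (SD, n = 3 each), which is 38.2% and 36.5% more. These 2 members passed the test and 0 fell, where 0.576% of all genes tested passed higher and 0.841% passed lower. The median log2 fold change was 0.16 over the 10 members and −0.01 over all genes tested. Groups did not overlap in 5 members, 4 of them higher with GPT2si (SRSF2, SRSF3, SRSF5 and SRSF6) and 1 lower (SRSF4), where 14.9% and 13.2% of all genes tested were separated in these directions. At an unadjusted p under 0.05, 3 members were higher and 0 lower, against 10.3% and 9.27% of all genes. Because the family was chosen with this contrast known, nothing is read from these counts.

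**Figure D1:**
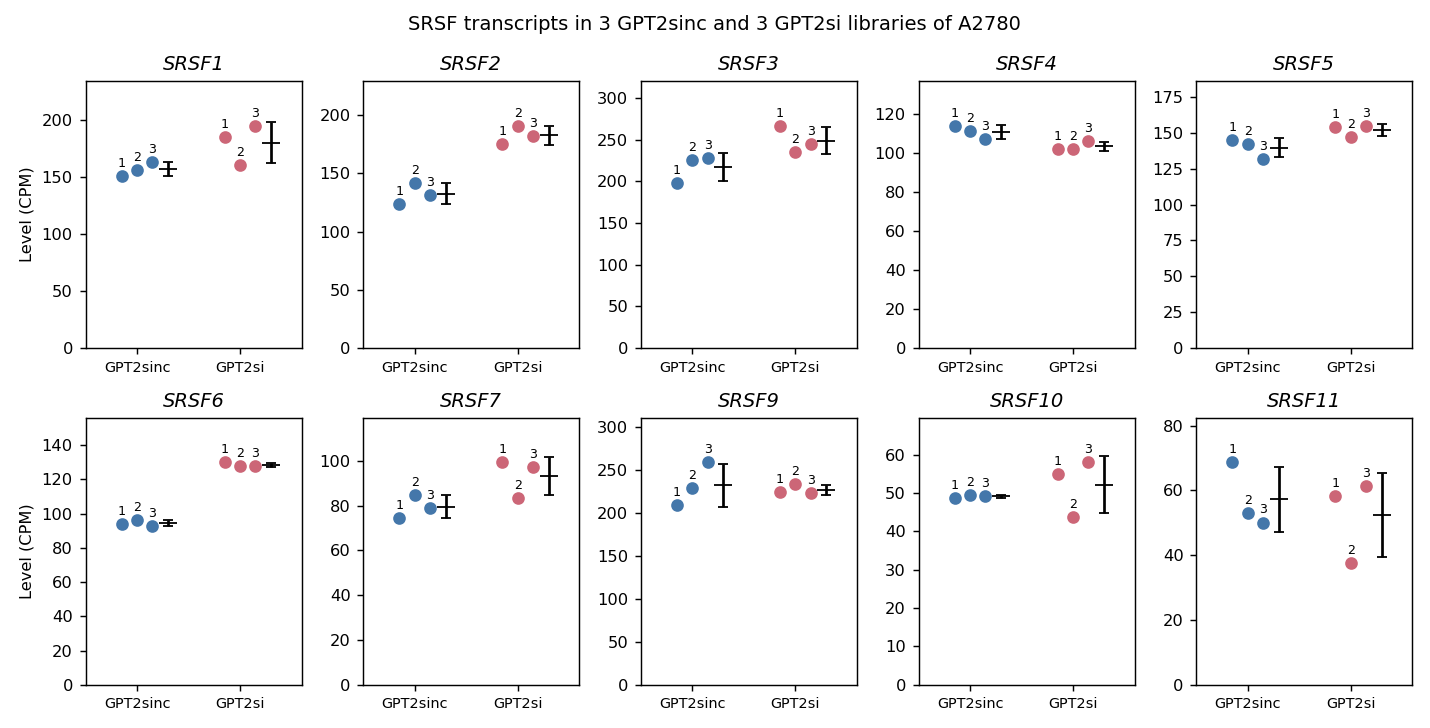
Level of each SRSF transcript (CPM, axis from 0) in the 3 GPT2sinc libraries (blue) and the 3 GPT2si libraries (red), with the replicate number above each point and the group mean ± SD in black. SRSF2 and SRSF6 show the widest gap between the groups, while GPT2si 2 lies apart from GPT2si 1 and 3 in SRSF1, SRSF7, SRSF10 and SRSF11.

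SRSF4, SRSF5 and SRSF6 form a group of closely related paralogs with a pair of RNA recognition motifs and a long repeat tail, and their values differed in direction. SRSF6 (ENSG00000124193; chromosome 20, 43457928 to 43464247, plus strand, GRCh38 in GENCODE 29) was at 93.8, 96.3 and 92.8 CPM in GPT2sinc 1 to 3 and at 130, 128 and 128 CPM in GPT2si 1 to 3. Each GPT2si library was above each GPT2sinc library, and the SD within each group was under 2 CPM. By edgeR its log2 fold change was 0.45 with an SE of 0.07 (adjusted p = 0.0281).

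SRSF5 (ENSG00000100650; chromosome 14, 69726900 to 69772005, plus strand) was at 145, 142 and 132 CPM in GPT2sinc and at 154, 147 and 155 CPM in GPT2si. The groups did not overlap, with GPT2sinc 1 and GPT2si 2 close to each other, and the log2 fold change of 0.12 (SE 0.08) did not pass. SRSF4 (ENSG00000116350; chromosome 1, 29147743 to 29181987, minus strand) was at 114, 111 and 107 CPM in GPT2sinc and at 102, 102 and 106 CPM in GPT2si. Its groups did not overlap either, with GPT2si lower, and the log2 fold change of −0.10 (SE 0.08) did not pass.

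Ratios of raw counts within a library do not depend on how libraries are scaled. A shift between libraries that goes with GC content, given below, need not cancel in them. SRSF6 is at 39.6% GC, SRSF4 at 52.2% and SRSF5 at 49.0%. The log2 ratio of SRSF6 to SRSF4, a pair chosen after their values were seen, was −0.28, −0.20 and −0.20 in GPT2sinc 1 to 3 and 0.36, 0.34 and 0.27 in GPT2si 1 to 3. SRSF4 thus had more counts than SRSF6 in each GPT2sinc library and fewer in each GPT2si library. Such counts are not corrected for length. Divided by the length of the longest coding transcript, SRSF4 was above SRSF6 in each library. By summed exon length SRSF4 was below SRSF6 already in GPT2sinc, at 12.4 against 20.5 CPM per kb. The log2 ratio of SRSF6 to SRSF5 was −0.63, −0.56 and −0.51 in GPT2sinc and −0.25, −0.19 and −0.28 in GPT2si. These groups did not overlap either. Both ratios reuse the SRSF6 values given above and are not separate support for them.

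The stretches upstream of 3 members are printed to set SRSF6, whose transcripts rose, beside its paralog SRSF4, whose log2 fold change was −0.10, and beside SRSF3, whose groups were separated without passing the test. They are from RefSeq on GRCh38.p14, read 5′ to 3′ along the gene's strand, and stop at the RefSeq start or at an earlier GENCODE start. They lie at chr20:43457646-43457895 (plus strand, SRSF6), chr1:29181988-29182150 (minus strand, SRSF4) and chr6:36594112-36594352 (plus strand, SRSF3). Capitals mark matches to the motifs named in the next paragraph.
SRSF6: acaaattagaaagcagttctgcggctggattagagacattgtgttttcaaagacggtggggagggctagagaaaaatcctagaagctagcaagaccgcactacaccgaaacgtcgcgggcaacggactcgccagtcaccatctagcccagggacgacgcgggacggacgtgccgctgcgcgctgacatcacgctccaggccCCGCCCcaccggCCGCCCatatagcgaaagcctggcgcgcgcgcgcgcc
SRSF4: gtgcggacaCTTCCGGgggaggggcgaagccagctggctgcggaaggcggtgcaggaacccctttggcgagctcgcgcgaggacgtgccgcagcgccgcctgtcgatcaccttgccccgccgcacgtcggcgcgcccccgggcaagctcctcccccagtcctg
SRSF3: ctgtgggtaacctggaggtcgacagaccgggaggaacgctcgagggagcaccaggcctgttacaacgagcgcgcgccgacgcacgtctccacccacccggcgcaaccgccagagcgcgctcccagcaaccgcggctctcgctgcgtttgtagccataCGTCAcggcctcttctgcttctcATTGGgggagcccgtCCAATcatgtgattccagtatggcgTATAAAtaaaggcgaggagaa

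Windows of 250 bases upstream of the RefSeq start were found for 9 of the 10 members (SRSF2 was not matched) and searched on both strands for 6 motifs, none of which overlapped another match in the 3 windows printed. The GC box GGGCGG was present in SRSF4, SRSF6 and SRSF7 and in 42.6% of 35116 such windows. SRSF6 holds it at 49 and 37 bases before the start, both on the opposite strand. SRSF4 holds it at 34 bases before the RefSeq start, among the 87 bases not printed. The ETS motif CCGGAAG lay 241 bases before that start on the opposite strand, and was also present in SRSF5 and in 8.52% of windows. SRSF3 alone of the 9 held the CCAAT box (32.0% of windows), at 70 and 55 bases before the start. The TATA box TATAAA lay 30 bases before its start and was found in SRSF7 and SRSF11 too (10.7% of windows). The core of the cAMP response element, TGACG, was in SRSF1, SRSF3, SRSF5, SRSF7 and SRSF11 (21.2% of windows), and the E-box CACGTG in 0 of the 9 (6.34% of windows). The GC content of the members' windows ran from 52.0% to 73.6% with a median of 61.6%, against a median of 58.0% over all windows. Such matches are descriptions of sequence, and no binding was measured here.

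SRSF2 (ENSG00000161547; chromosome 17, 76734115 to 76737374, minus strand) encodes a component of nuclear speckles that is recurrently mutated in myeloid neoplasms. Its level was 124, 142 and 131 CPM in GPT2sinc 1 to 3 and 175, 191 and 182 CPM in GPT2si 1 to 3. The groups were far apart, and GPT2si 2 was the highest library. By edgeR the log2 fold change was 0.47 with an SE of 0.08 (adjusted p = 0.0368).

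SRSF2 overlaps MFSD11 on the opposite strand, and 29.5% of the 50-base stretches of its longest coding transcript also occur in transcripts of overlapping genes. The libraries kept strand, but whether the counting used it is not known here. MFSD11 was at 24.7 ± 2.35 CPM in GPT2sinc and 24.9 ± 2.45 CPM in GPT2si (n = 3 each), a log2 fold change of 0.01 (SE 0.12). SRSF8, a close relative of SRSF2 outside the 10 members, was at 28.3, 30.3 and 31.8 CPM in GPT2sinc and 38.3, 35.3 and 39.9 CPM in GPT2si. Its groups did not overlap, and its log2 fold change of 0.33 (SE 0.10) did not pass edgeR (adjusted p = 0.127) but passed DESeq2 (adjusted p = 0.0429). In edgeR fits given below, SRSF8 passed with GC and length offsets (0.40, adjusted p = 0.0178) and without GPT2si 2 (0.36, adjusted p = 0.0348). Leaving out any other library gave adjusted p from 0.185 to 0.422 by edgeR. The log2 ratio of SRSF2 to SRSF8 counts overlapped between the groups, at 2.13 ± 0.09 in GPT2sinc and 2.27 ± 0.14 in GPT2si (n = 3 each).

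Leaving out 1 library changed the calls for SRSF2 and SRSF6 more than their values. Without GPT2si 2 both passed edgeR (adjusted p = 0.0143 for SRSF2 and 0.00860 for SRSF6). Without GPT2sinc 1, GPT2sinc 2, GPT2sinc 3, GPT2si 1 or GPT2si 3 neither did, with adjusted p from 0.0602 to 0.221 for SRSF2 and from 0.0557 to 0.187 for SRSF6. In these 5 fits, in the same order, 3, 0, 1, 1 and 51 genes of all tested passed higher. Over these 6 fits their log2 fold changes stayed between 0.42 and 0.52 and between 0.44 and 0.47. DESeq2 called the same 2 members (adjusted p = 0.000428 and 6.45e-05) and 0 lower, with 3.89% of all genes called higher and 3.40% lower. With no low-count filter neither passed (adjusted p = 0.0914 and 0.0647, edgeR).

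SRSF3, the smallest SR protein, and SRSF7 shuttle between nucleus and cytoplasm and are adaptors for the export receptor NXF1. SRSF3 (ENSG00000112081; chromosome 6, 36594353 to 36605600, plus strand) was at 198, 226 and 228 CPM in GPT2sinc and at 267, 235 and 245 CPM in GPT2si. The groups did not overlap, and edgeR gave a log2 fold change of 0.20 with an SE of 0.09 (adjusted p = 0.262). SRSF7 (ENSG00000115875; chromosome 2, 38743599 to 38751494, minus strand), which also has a zinc knuckle, was at 74.6, 84.8 and 79.0 CPM in GPT2sinc and at 99.4, 83.6 and 97.2 CPM in GPT2si. GPT2si 2 lay below GPT2sinc 2, so the groups overlapped, and the log2 fold change of 0.23 (SE 0.10) did not pass. The log2 ratio of SRSF3 to SRSF7 counts was nearly the same in both groups, 1.45 ± 0.07 and 1.42 ± 0.08 (SD, n = 3 each).

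SRSF1, the founding SR protein and a proto-oncogene, and its close relative SRSF9 both had overlapping groups. SRSF1 (ENSG00000136450; chromosome 17, 58003360 to 58007346, minus strand) was at 151, 156 and 163 CPM in GPT2sinc and at 185, 160 and 195 CPM in GPT2si. GPT2si 1 and 3 were above all GPT2sinc libraries, GPT2si 2 was not, and the log2 fold change of 0.20 (SE 0.09) did not pass. SRSF9 (ENSG00000111786; chromosome 12, 120461668 to 120469793, minus strand) was at 209, 229 and 259 CPM in GPT2sinc and at 224, 234 and 223 CPM in GPT2si. The GPT2si libraries lay within the range of the GPT2sinc libraries, and the log2 fold change was −0.03 (SE 0.09), or 0.05 without GPT2sinc 3. The log2 ratio of SRSF1 to SRSF9 counts overlapped between the groups, at −0.56 ± 0.10 in GPT2sinc and −0.34 ± 0.18 in GPT2si. Both genes overlap others in the annotation. SRSF1 shares 59.0% of its 50-base stretches with overlapping genes, among them the protein-coding gene ENSG00000266086 on the same strand with a mean of 280 counts, and SRSF9 shares 38.9% with GATC on the opposite strand. GATC was at 61.9 ± 9.64 CPM in GPT2sinc and 76.8 ± 1.57 CPM in GPT2si (n = 3 each).

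SRSF10, which acts as a splicing repressor when dephosphorylated, and SRSF11, which contacts proteins of the early spliceosome, were the members of lowest level. SRSF10 (ENSG00000188529; chromosome 1, 23964804 to 23980927, minus strand) was at 48.7, 49.5 and 49.2 CPM in GPT2sinc and at 54.9, 43.7 and 58.0 CPM in GPT2si. GPT2si 1 and 3 were above the narrow range of the GPT2sinc libraries and GPT2si 2 was below it, for a log2 fold change of 0.09 (SE 0.12). SRSF11 (ENSG00000116754; chromosome 1, 70205682 to 70253052, plus strand) was at 68.7, 53.1 and 50.1 CPM in GPT2sinc and at 58.4, 37.5 and 61.5 CPM in GPT2si. GPT2sinc 1 was the highest library and GPT2si 2 the lowest. Its log2 fold change of −0.13 (SE 0.19) became 0.02 without GPT2sinc 1 and 0.05 without GPT2si 2. SRSF12, a relative of SRSF10 outside the 10 members, was at 7.17, 5.77 and 5.86 CPM in GPT2sinc and 4.97, 3.95 and 5.40 CPM in GPT2si, with groups that did not overlap and a log2 fold change of −0.39 (SE 0.17) that did not pass.

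**Figure D2:**
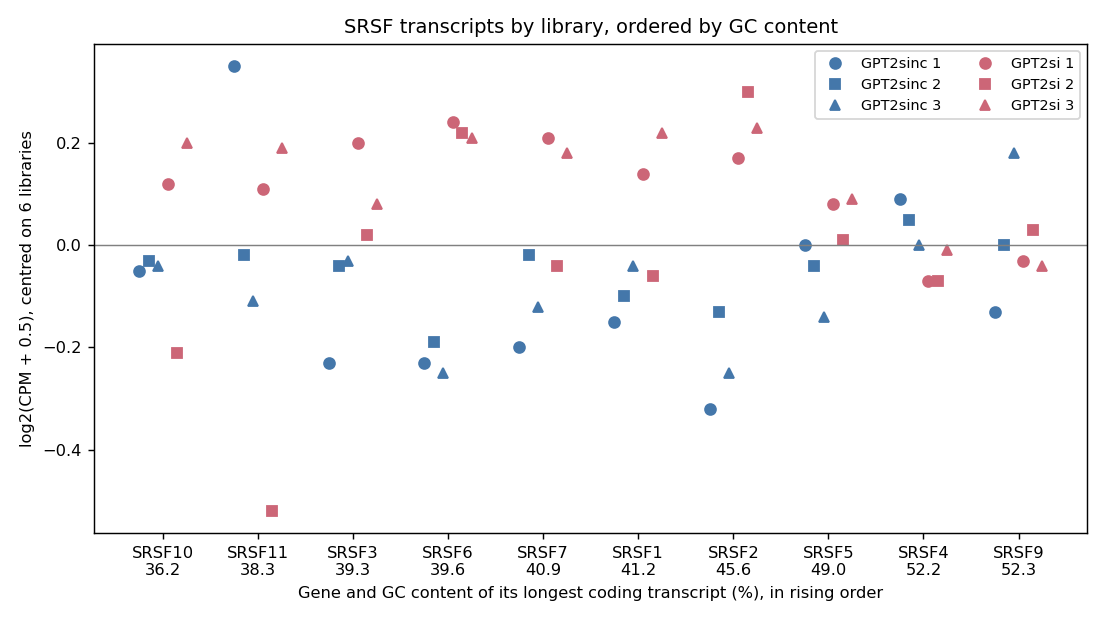
Level of each SRSF transcript in each library as log2(CPM + 0.5), centred on the mean of the 6 libraries, with genes ordered by the GC content of their longest coding transcript; color gives the group and shape the replicate number. GPT2si 2 (red squares) is lowest in SRSF10 and SRSF11, lies within the range of GPT2sinc in SRSF1 and SRSF7, and stays with the other GPT2si libraries in SRSF6.

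The distance of GPT2si 2 from the other GPT2si libraries went with GC content across all genes. Among 3534 tested genes whose longest coding transcript has under 42% GC, the median of GPT2si 2 was −0.40 on the log2 scale against the mean of GPT2si 1 and 3, and among 5474 genes over 55% GC it was 0.24. GPT2sinc 1 stood apart the other way, at a median of 0.18 against the mean of the 6 libraries under 42% GC and −0.07 over 55%, where GPT2si 2 was at −0.34 and 0.18. GPT2si 3 was at 0.13 and −0.06. The 6 members under 42% GC are SRSF1, SRSF3, SRSF6, SRSF7, SRSF10 and SRSF11, and the difference of GPT2si 2 from the mean of GPT2si 1 and 3 was −0.67 for SRSF11, −0.36 for SRSF10, −0.25 for SRSF1, −0.23 for SRSF7 and −0.12 for SRSF3. SRSF6, at 39.6% GC, stood at 0.00, and SRSF2, at 45.6% GC, at 0.09. The values that follow bear on it.

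When edgeR was run with offsets for GC content and length, SRSF1, SRSF2, SRSF6 and SRSF7 passed higher and 0 members passed lower, where 7.19% of all genes passed higher and 5.30% lower. The log2 fold changes were then 0.50 (SE 0.09) for SRSF2, 0.61 (SE 0.12) for SRSF6, 0.31 (SE 0.07) for SRSF7 and 0.29 (SE 0.07) for SRSF1, with adjusted p = 0.00847, 0.0150, 0.0269 and 0.0258 (edgeR). The same 4 members passed without GPT2si 2, where 2.15% of all genes passed higher and 2.62% lower. SRSF1 was then at 0.27 and SRSF7 at 0.29, with adjusted p = 0.0357 and 0.0453 (edgeR). Among all genes the offsets turned the calls from 98 higher and 143 lower to 1210 higher and 891 lower.

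**Figure D3:**
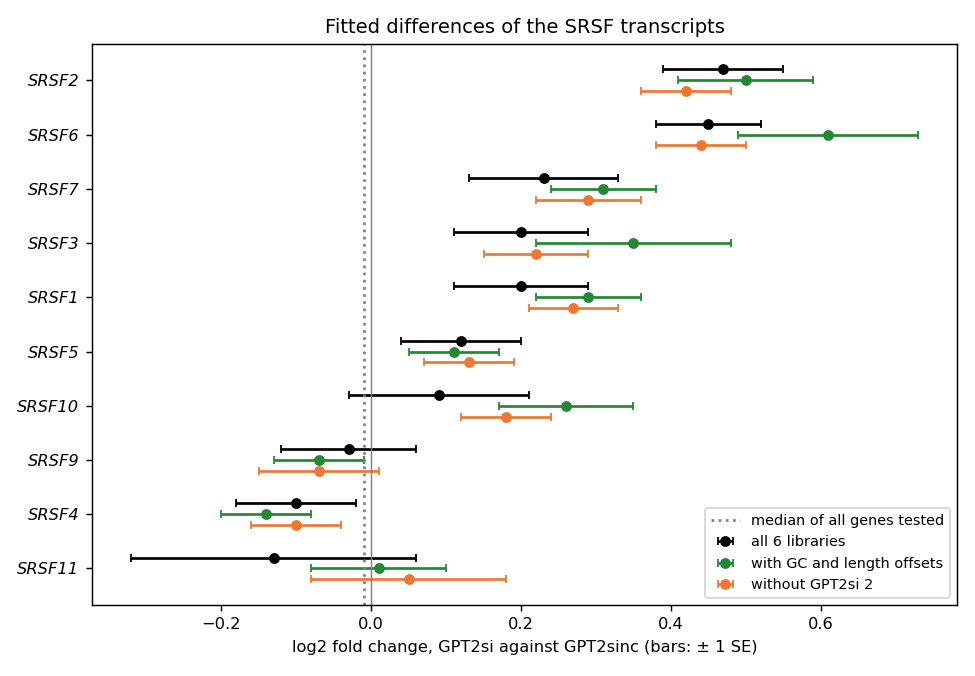
Log2 fold change of each SRSF transcript, GPT2si against GPT2sinc, with all 6 libraries (black), with GC and length offsets (green) and without GPT2si 2 (orange); bars are ± 1 SE and the dotted line is the median of all genes tested at −0.01. SRSF2 and SRSF6 stand highest under each of the 3 fits, and SRSF11 moves from −0.13 to 0.01 and 0.05.

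Per length, SRSF9 was the most abundant member and SRSF10 and SRSF11 the least. Divided by the length of the longest coding transcript, SRSF9 stood at 193 ± 20.8 CPM per kb in GPT2sinc (SD, n = 3). SRSF3 followed at 51.5 ± 3.91, SRSF1 at 50.2 ± 2.00, SRSF5 at 49.6 ± 2.39, SRSF4 at 46.3 ± 1.44 and SRSF2 at 45.8 ± 3.08 CPM per kb, and each neighbour in this run overlapped the next. SRSF7 at 31.9 ± 2.06 and SRSF6 at 21.8 ± 0.414 CPM per kb were each below the member before them in all GPT2sinc libraries. SRSF11 at 15.1 ± 2.65 and SRSF10 at 14.1 ± 0.116 CPM per kb overlapped. The order rests on the annotated length. SRSF9 has a longest coding transcript of 1201 bases. By the summed length of its exons it was at 62.0 CPM per kb, still first. In that order SRSF4 moved from place 5 to 8, SRSF3 from 2 to 4, SRSF2 from 6 to 3 and SRSF6 from 8 to 6.

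The share of each member in the SRSF transcript pool follows from the levels already given and was not tested. It rests on the length of the longest coding transcript, and shares by summed exon length were not computed. SRSF2 took 8.69%, 9.37% and 8.40% of the summed CPM per kb of the 10 members in GPT2sinc 1 to 3 and 10.7%, 12.1% and 11.1% in GPT2si 1 to 3. SRSF6 took 4.38%, 4.25% and 3.98% against 5.29%, 5.42% and 5.17%. SRSF4 went the other way, with 9.62%, 8.86% and 8.30% against 7.49%, 7.76% and 7.80%. These 3 shares, chosen because their groups did not overlap, stand beside 7 members whose shares overlapped. The summed CPM per kb of the 10 members was 519.7 ± 22.3 in GPT2sinc and 562.4 ± 12.4 in GPT2si (SD, n = 3 each), 8.22% more. Without division by length the summed level of the 10 members was 1227, 1288 and 1291 CPM in GPT2sinc and 1450, 1361 and 1451 CPM in GPT2si, which is 12.0% more on average.

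**Figure D4:**
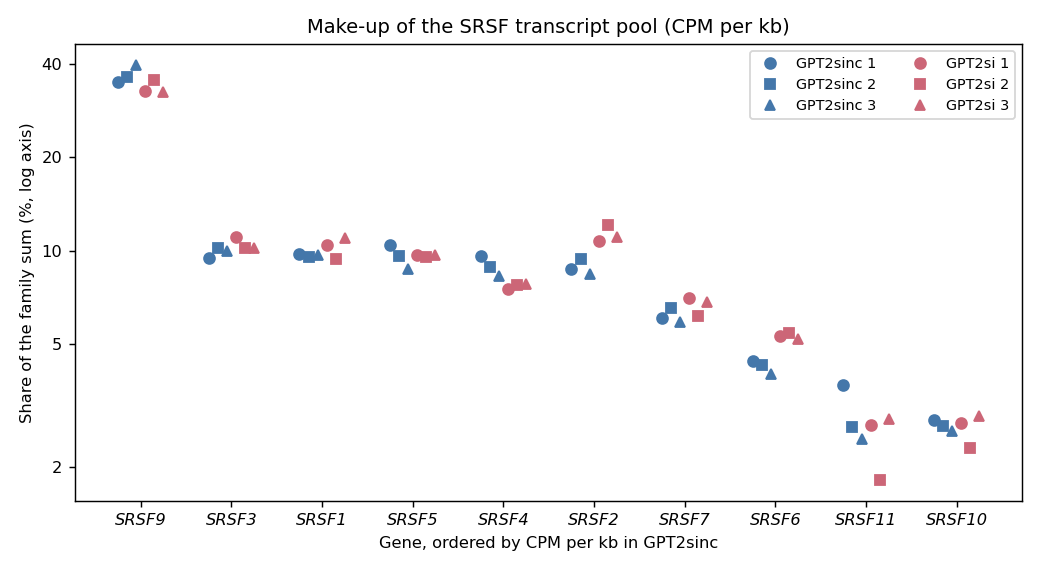
Share of each member in the summed CPM per kb of the 10 SRSF transcripts (percent, log axis) in each library; color gives the group and shape the replicate number. Shares of SRSF2 and SRSF6 are higher and that of SRSF4 is lower throughout GPT2si, and SRSF9 takes 32.6% to 39.9%. Lengths are those of the longest coding transcript, and the size of each share depends on them.

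All 10 members have transcripts annotated to undergo nonsense-mediated decay in GENCODE 29. By share they ran from 1 of 19 transcripts in SRSF5 to 1 of 2 in SRSF6 and 6 of 12 in SRSF7. SRSF2 has 2 such transcripts and 4 with a retained intron among 11, and SRSF5 has 8 with a retained intron among 19. The table does not tell these forms apart. Processed pseudogenes could take reads of a member: of 13 rows with an SRSF pseudogene symbol 3 had any count, with 17 to 29 counts per library in sum. SRSF6P2, which shares 6.41% of the 50-base stretches of SRSF6, held 119 of these counts over the 6 libraries. By the same measure SRSF4 and SRSF7 shared 0% with other genes.

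Genes that act with the SR proteins were read from lists. Of 145 genes on 8 lists, 1 rose and 0 fell by edgeR, where 0.576% of all genes tested passed higher and 0.841% lower. With p unadjusted and under 0.05, 42 were higher and 4 lower, and DESeq2 called 13 higher and 2 lower. Over all genes tested, these shares were 10.3% and 9.27% by unadjusted p and 3.89% and 3.40% in DESeq2, and the counts of the single lists that follow are to be read beside them. With GC and length offsets 24 of the 145 passed higher and 1 lower, where 7.19% and 5.30% of all genes did. The lists were chosen with earlier results known, and nothing particular to a list is read from its count. The gene that rose was HNRNPAB, which encodes an RNA-binding heterogeneous nuclear ribonucleoprotein (hnRNP). It was at 134, 162 and 166 CPM in GPT2sinc and 216, 242 and 207 CPM in GPT2si, a log2 fold change of 0.53 (SE 0.11; adjusted p = 0.0484, edgeR). Without any 1 of GPT2sinc 1, 2 or 3 or GPT2si 1 or 3, 0 of the 145 passed. Without GPT2si 2, 8 passed higher and 2 lower, where 2.15% and 2.62% of all genes did.

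The kinases, phosphatases and import receptors of SR proteins (14 genes) had a median log2 fold change of −0.09, with 0 past edgeR, 0 and 2 (higher and lower) by unadjusted p below 0.05, and 0 and 1 in DESeq2. The gene called by DESeq2 was CLK3, a nuclear kinase of the repeat tail, at 144, 132 and 133 CPM in GPT2sinc and 111, 113 and 106 CPM in GPT2si (−0.30, SE 0.08; adjusted p = 0.0934 by edgeR and 0.0382 by DESeq2). CLK2 was at 101, 93.0 and 83.2 against 76.5, 80.3 and 78.7 CPM. In both kinases the GPT2si libraries all lay below the GPT2sinc libraries. Of the 14 genes, 3 were so separated lower and 0 higher, where 13.2% and 14.9% of all genes tested were. With GC and length offsets CLK3 was at −0.12 (SE 0.12, adjusted p = 0.530 by edgeR). Without GPT2si 2 it was at −0.34 (SE 0.07) and passed edgeR (adjusted p = 0.0332). Leaving out any other library gave adjusted p from 0.153 to 0.392 by edgeR. CLK2 went from −0.24 (SE 0.09) without the offsets to −0.29 (SE 0.09, adjusted p = 0.0634 by edgeR) with them. Of this list, 2 genes passed higher and 0 lower with the offsets, and the median was −0.06. Without GPT2si 2, 0 passed higher and 1 lower, and the median was −0.02.

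Among 24 genes listed by function as SR-related regulators, outside the SRSF genes, the median was −0.01. By edgeR 0 passed, 7 were higher and 0 lower by unadjusted p below 0.05, and DESeq2 called 3 and 0. SRRT, which links the cap-binding complex to RNA processing, was at 167, 197 and 191 CPM in GPT2sinc and 246, 298 and 240 CPM in GPT2si (0.50, SE 0.11; adjusted p = 0.0592 by edgeR). TRA2B, a splicing activator close to the SR family, was at 110, 129 and 130 against 160, 137 and 161 CPM (0.32, SE 0.10). With all 6 libraries and no offsets it passed neither edgeR (adjusted p = 0.137) nor DESeq2 (adjusted p = 0.0636). The 3 genes called by DESeq2 were SRRT, LUC7L and SRRM2 (adjusted p = 0.00346, 0.00986 and 0.0466). In SRRT and TRA2B the groups did not overlap. Of the 24 genes, 8 were so separated higher and 0 lower, where 14.9% and 13.2% of all genes tested were.

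The hnRNPs, many of which oppose SR proteins at exons, had a median of 0.09 over 27 genes, with 1 past edgeR, 5 and 1 by unadjusted p below 0.05, and 2 and 1 in DESeq2. Medians of the core snRNP lists were positive. U1 and U2 proteins had a median of 0.23 over 23 genes (0 past edgeR, 12 and 0 by unadjusted p below 0.05, 5 and 0 in DESeq2). Tri-snRNP proteins had 0.19 over 15 (0 past edgeR, 6 and 0, then 0 and 0 with DESeq2) and Sm proteins 0.15 over 8 (0 past edgeR, 3 and 0, then 0 and 0 with DESeq2). SF3A1, a U2 protein, was at 269 ± 26.1 in GPT2sinc and 358 ± 39.6 CPM in GPT2si (n = 3 each). Without GPT2si 2 the medians of these 3 lists were 0.14, 0.10 and 0.07. With GC and length offsets they were 0.23, 0.16 and 0.21, where the median of all genes was 0.02.

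Factors of nonsense-mediated decay and the exon junction complex had a median of 0.13 over 17 genes (0 past edgeR, 4 and 1 by unadjusted p below 0.05, 2 and 0 in DESeq2). DHX34, a helicase of that pathway, was at 26.6, 31.6 and 28.4 CPM in GPT2sinc and 41.0, 54.9 and 41.0 CPM in GPT2si (0.66, SE 0.14; adjusted p = 0.0534 by edgeR and 0.000802 by DESeq2). mRNA export factors had a median of 0.09 over 17 genes (0 past edgeR, 5 and 0 by unadjusted p below 0.05, 1 and 0 in DESeq2), with DDX39A, an export helicase, at 75.1 ± 6.54 CPM in GPT2sinc and 111 ± 17.4 CPM in GPT2si (n = 3 each). In DHX34 and DDX39A, GPT2si 2 was the highest library.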

How the data were processed

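RNA-seq of A2780 was available as whole-number counts per Ensembl gene, which the authors deposited without normalization, 1 column per library. Per the submitters' processing notes CASAVA and StringTie were used, without versions or roles; aligner, build, annotation and strand setting: not given in the sources used here. All 6 columns were matched by name. Symbols came from the gene name table; positions, lengths, GC content and transcript types from GENCODE 29 (GRCh38), and upstream sequences from RefSeq (GRCh38.p14).

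Differences were tested with the quasi-likelihood test of edgeR 4.0.16 (R 4.3.3) on the counts, with TMM factors, filterByExpr and the group as the only term, and Benjamini-Hochberg adjustment over 17006 genes (threshold 0.05). SE was derived from the F statistic, and CPM is scaled by TMM factors. A floor of 3 counts equals 0.0590 to 0.0715 CPM; such floors cover counting error only. Alternatives were DESeq2 size factors, the DESeq2 1.42.0 Wald test, no low-count filter, a replicate block, loess offsets (span 0.5) for GC content and length (98.9% of tested genes), leaving out each library, and summed exon length in place of transcript length. Members and lists were chosen with earlier results of these data known. The genes named are GPT2, the members, SRSF8, SRSF12, markers, and from each list up to 4 of smallest p; MFSD11 and GATC were named for their overlap. Tested on simulated data for GPT2si against GPT2sinc over 16711 genes, edgeR recovered 39.3% of genes changed 1.5-fold, 80.7% of 2-fold and 99.3% of 4-fold, and 7.84% of its calls were false. The simulated libraries held no shift with GC content, unlike the real ones, so these rates need not hold for the latter. No pair of libraries looked like 1 library deposited again, since chi-square over its degrees of freedom was 8.23 or more.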

Additional observations from a re-analysis of the deposited data

How the results depend on the processing

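GPT2 stayed past the test in each alternative run, with a log2 fold change from −1.30 to −1.24. The 2 members past the test became 0 with no low-count filter, 4 with GC and length offsets, and 0 to 4 when 1 library was left out; members past the test and lower stayed at 0. Genes past the test, 98 higher and 143 lower, became 61 and 112 with DESeq2 size factors, 17 and 27 with no low-count filter, 1210 and 891 with GC and length offsets, 558 and 488 with DESeq2, and from 0 to 377 higher and from 1 to 459 lower when 1 library was left out. Genes of the 8 lists, 1 higher and 0 lower, became 0 and 0 with DESeq2 size factors and with no low-count filter, 24 and 1 with GC and length offsets, 13 and 2 with DESeq2, and from 0 to 8 higher and 0 to 2 lower when 1 library was left out. With the replicate number as a block, 2 members, 252 genes higher and 306 lower, and 7 list genes higher passed. The numbers are not shown to pair the libraries: deviations of same-numbered libraries from their group means correlated at 0.085, 0.11 and −0.19, and not every library correlated best with its own number. Signs turned for SRSF11 (0.01 with the offsets, 0.02 without GPT2sinc 1 and 0.05 without GPT2si 2; range −0.25 to 0.05 over left-out libraries) and SRSF9 (0.05 without GPT2sinc 3; range −0.10 to 0.05). The offsets and the left-out libraries are alternative fits, and the cause of these changes was not tested. Recovery was simulated at 1.5-fold and above, not at the 38.2% and 36.5% seen in SRSF2 and SRSF6.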
